A study of Mus musculus with 8 samples.

Results

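Adipocyte genes were measured by RNA-seq in articular cartilage taken from mouse knee joints. The set was 10 genes given by symbol, Adipoq, Cfd, Retn, Lep, Plin1, Plin4, Cidec, Fabp4, Lpl and Pparg, and all 10 were found among the 52636 genes of the files. Of these, 9 were among the 12538 genes tested, which were protein-coding genes above 1 TPM in at least 1 library (TPM is a length-corrected level relative to all transcripts of the library), and Lep was not. The libraries were made from male C57BL/6J wild-type (WT) mice and from Oscar-/- mice on the C57BL/6 background, which lack the collagen receptor OSCAR. Mice labelled as 10 weeks old underwent either sham surgery or destabilization of the medial meniscus (DMM), a knee operation that leads to osteoarthritis, and cartilage was collected 2 or 4 weeks later. Each of the 8 combinations of genotype, surgery and week was 1 library of 10 cartilages combined, with no repeat library, so that the spread between mice of 1 condition was not measured.

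White fat cells store triglyceride in a large lipid droplet coated by perilipins, take up fatty acids that lipoprotein lipase frees from circulating lipoproteins, and secrete hormones such as adiponectin, leptin and resistin. The nuclear receptor PPARγ, acting with C/EBP factors, drives this programme. In the knee, fat cells lie in the bone marrow next to the cartilage and in the infrapatellar fat pad, and not in cartilage itself. The 10 genes do not separate marrow fat from joint fat, so the origin of their reads within the joint was not determined.

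Total expected counts were 13189181 to 18533609 per library. The targeted gene, Oscar, had 42 to 118 counts in the 4 WT libraries and 0 in the 4 Oscar-/- libraries. All 8 chondrocyte markers were read in every library, with a summed level of 572 to 2058 TPM, while the 4 hemoglobin genes took 26.5 to 37.7% of all TPM, 6 neutrophil markers 65190 to 105300 TPM and 5 osteoblast markers 1514 to 3210 TPM, so that RNA of blood, marrow and bone was present beside that of cartilage. Since TPM adds up to a fixed total, counts scaled by library size with the trimmed mean of M values (TMM CPM) are also given for the members where the scale changes a direction. The file names carry 1 lane tag for all 2-week libraries, another for the WT libraries at 4 weeks and another for the Oscar-/- libraries at 4 weeks. Genotype and tag therefore cannot be told apart at 4 weeks, nor week and tag in any comparison between weeks. Each DMM over sham ratio within a genotype and week lies within 1 tag.

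Upstream sequence is shown for Adipoq, to which the other members are compared, and for Cfd, Plin1 and Cidec, which with Plin4, not shown, spanned over 4-fold between libraries, as the stretch in which elements for factors of the adipocyte programme were searched. RefSeq promoter windows on GRCm38.p6, from 250 bases before to 50 bases after a transcription start, matched 8 of the 10 genes with 11 windows. Fabp4 and Lpl had none. The 150 bases that end 51 bases before the start are printed 5′ to 3′ on the gene's own strand for Adipoq, which encodes adiponectin (chr16:23146336-23146485 on the plus strand), Cfd, which encodes the complement protease adipsin (chr10:79890653-79890802 on the plus strand), Plin1, which encodes the perilipin of the large lipid droplet (chr7:79732827-79732976 on the minus strand), and the second annotated start of Cidec, whose product promotes droplet fusion (chr6:113434815-113434964 on the minus strand). Capitals mark matches to the C/EBP core TTGCNNAA, where N is any base.
Adipoq: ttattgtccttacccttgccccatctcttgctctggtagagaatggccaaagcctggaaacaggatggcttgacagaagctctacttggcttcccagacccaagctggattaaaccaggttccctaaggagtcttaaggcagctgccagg
Cfd: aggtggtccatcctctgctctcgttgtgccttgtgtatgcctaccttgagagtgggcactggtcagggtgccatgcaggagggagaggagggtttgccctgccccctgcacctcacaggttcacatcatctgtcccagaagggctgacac
Plin1: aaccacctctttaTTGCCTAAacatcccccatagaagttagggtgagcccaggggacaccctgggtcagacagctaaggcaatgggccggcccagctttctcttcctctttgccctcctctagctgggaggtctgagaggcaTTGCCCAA
Cidec: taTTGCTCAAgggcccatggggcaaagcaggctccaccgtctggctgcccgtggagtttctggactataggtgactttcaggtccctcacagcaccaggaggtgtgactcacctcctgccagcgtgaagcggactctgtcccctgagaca

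Plin1 held 2 matches to TTGCNNAA and Cidec 1 in the printed stretches, and Adipoq and Cfd held no match there. The window of the first Cidec start, not printed, held no match. By the annotated bounds of the whole gene, the Cidec stretch lay inside the gene and the Plin1 stretch partly so. Over all members' full windows the motif, searched on both strands, was also found in Lep and, at 2 places, in the third window of Pparg, and 10.8% of all 32851 promoter windows held it. The nuclear receptor element AGGTCA was found in the first and second windows of Pparg, against 16.3% of all windows, and the direct repeat of AGGTCA with 1 base between the copies, the usual PPARγ element, in no member window and 0.0396% of all windows. TATAAA was found in the second Pparg window, against 13.6% of all windows. These are matches of letters and give no evidence on binding.

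Levels differed widely among the members. By the median TPM of the 8 libraries the order was Fabp4 (189), Adipoq (48.8), Cfd (46.4), Lpl (15.3), Pparg (6.37), Cidec (2.19), Retn (1.48), Plin1 (1.42), Plin4 (0.855) and Lep (0.060). The lowest Fabp4 library, at 131 TPM, lay above the highest Adipoq library, at 66.2 TPM. Adipoq and Cfd overlapped, with ranges of 32.6 to 66.2 TPM and 25.8 to 116 TPM. Lpl, at 9.38 to 23.2 TPM, overlapped neither Cfd above it nor Pparg below it, at 4.37 to 8.5 TPM. From Pparg down to Plin4 each neighbour in the order overlapped the next, and Lep lay below Plin4 in every library. The lipid droplet genes Plin1, Plin4 and Cidec were thus toward the low end, and Fabp4, Adipoq and Cfd were at the top. Capillary endothelium and macrophages also express Fabp4, and the part of each cell type in these levels was not tested.

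Among the secreted factors, Adipoq encodes the hormone adiponectin. Its level at 2 weeks was 39.9 (sham) and 59.1 (DMM) TPM for WT and 48.3 (sham) and 56.5 (DMM) for Oscar-/-, and at 4 weeks 32.6, 49.3, 44.1 and 66.2 TPM in the same order. The 4 DMM libraries, at 49.3 to 66.2 TPM, lay above the 4 sham libraries, at 32.6 to 48.3 TPM, with no overlap. Adipoq was the only 1 of the 9 tested members to do so, and 1.03% of all tested genes did. On TMM CPM the Adipoq groups overlapped, at 53.7 to 87.8 in DMM and 37.3 to 67.0 in sham, and no member was free of overlap, against 1.22% of all tested genes.

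Cfd encodes adipsin, a serine protease of the alternative complement pathway that fat cells secrete. Cfd was at 25.8 (sham) and 70.0 (DMM) TPM for WT and 51.5 (sham) and 41.3 (DMM) for Oscar-/- at 2 weeks, and at 36.4, 52.4, 31.3 and 116 TPM in the same order at 4 weeks. The Oscar-/- DMM library at 4 weeks stood far above the other libraries and the WT sham library at 2 weeks was the lowest, while DMM and sham libraries overlapped.

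Retn encodes resistin, which in mice is made by fat cells. Its expected counts were low, at 26 (sham) and 17 (DMM) for WT and 24 (sham) and 16 (DMM) for Oscar-/- at 2 weeks, and 20, 13, 13 and 56 in the same order at 4 weeks. In TPM these were 1.60, 1.18, 2.29 and 1.32 at 2 weeks and 1.84, 1.35, 1.18 and 3.87 at 4 weeks. Retn was lower in DMM than in sham in 3 of the 4 library pairs, and the Oscar-/- DMM library at 4 weeks was the exception. Lep encodes leptin, the satiety hormone, and had 0 to 5 expected counts per library, at most 0.17 TPM. A count of 0 allows up to 3 counts, so no difference in Lep was detectable at this depth.

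Of the lipid droplet proteins, perilipin 1 guards the triglyceride store against lipases. Plin1 was at 0.51 (sham) and 1.86 (DMM) TPM for WT and 1.57 (sham) and 1.26 (DMM) for Oscar-/- at 2 weeks, and at 1.07, 2.02, 1.1 and 3.12 TPM in the same order at 4 weeks. Plin4, a perilipin of small nascent droplets, was at 0.35, 0.93, 0.97 and 0.72 TPM at 2 weeks and 0.74, 1.27, 0.78 and 1.82 TPM at 4 weeks. Both followed the same order of libraries at the extremes, with WT sham at 2 weeks lowest and Oscar-/- DMM at 4 weeks highest. Plin4 exceeded 1 TPM in 2 DMM libraries and no sham library, so it was tested only because of libraries of the group in which it was higher. The main edgeR counts for surgery, genotype, surgery within a genotype and the interaction are therefore also given without it. Without Plin4, the numbers of members higher in DMM on TPM, given below, become 7 of 8 at both weeks in WT. In Oscar-/- they become 4 of 8 at 2 weeks and 8 of 8 at 4 weeks. On TMM CPM they become 6 of 8 and 7 of 8 in WT, and 4 of 8 and 8 of 8 in Oscar-/-. Cidec was at 1.68, 2.79, 2.71 and 2.06 TPM at 2 weeks and 1.22, 2.32, 1.96 and 5.55 TPM at 4 weeks, again with the highest value in the Oscar-/- DMM library at 4 weeks and with overlap between DMM and sham.

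Of the fatty acid handling proteins, FABP4 carries fatty acids in the cytoplasm. Fabp4 was at 176 (sham) and 202 (DMM) TPM for WT and 211 (sham) and 213 (DMM) for Oscar-/- at 2 weeks, and at 131, 165, 166 and 227 TPM in the same order at 4 weeks. It varied least of all members, with the highest library 1.74-fold above the lowest. Lpl, which encodes lipoprotein lipase, was at 9.38, 17.2, 10.8 and 14.6 TPM at 2 weeks and 13.6, 16.6, 15.9 and 23.2 TPM at 4 weeks. Lpl was higher in DMM than in sham in all 4 pairs, with overlap between the groups.

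Pparg encodes the transcription factor PPARγ. It was at 4.37 (sham) and 8.5 (DMM) TPM for WT and 4.82 (sham) and 6.61 (DMM) for Oscar-/- at 2 weeks, and at 5.04, 6.21, 6.53 and 6.95 TPM in the same order at 4 weeks. The highest value was in WT DMM at 2 weeks, in which the effective length that the authors' software assigned to Pparg was 1313 bases, against up to 1734 bases in the other libraries. On TMM CPM, which does not use length, the highest Pparg library was Oscar-/- DMM at 2 weeks, and the log2 ratio of WT DMM to WT sham at 2 weeks was 0.25 in place of 0.96. Pparg overlaps an antisense gene, Gm44079, which had 0 counts, and Plin4 overlaps Hdgfl2 on the opposite strand by 17 bases. The library kit keeps strand, but whether counting used it is not given in the sources used here.

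**Figure D1:**
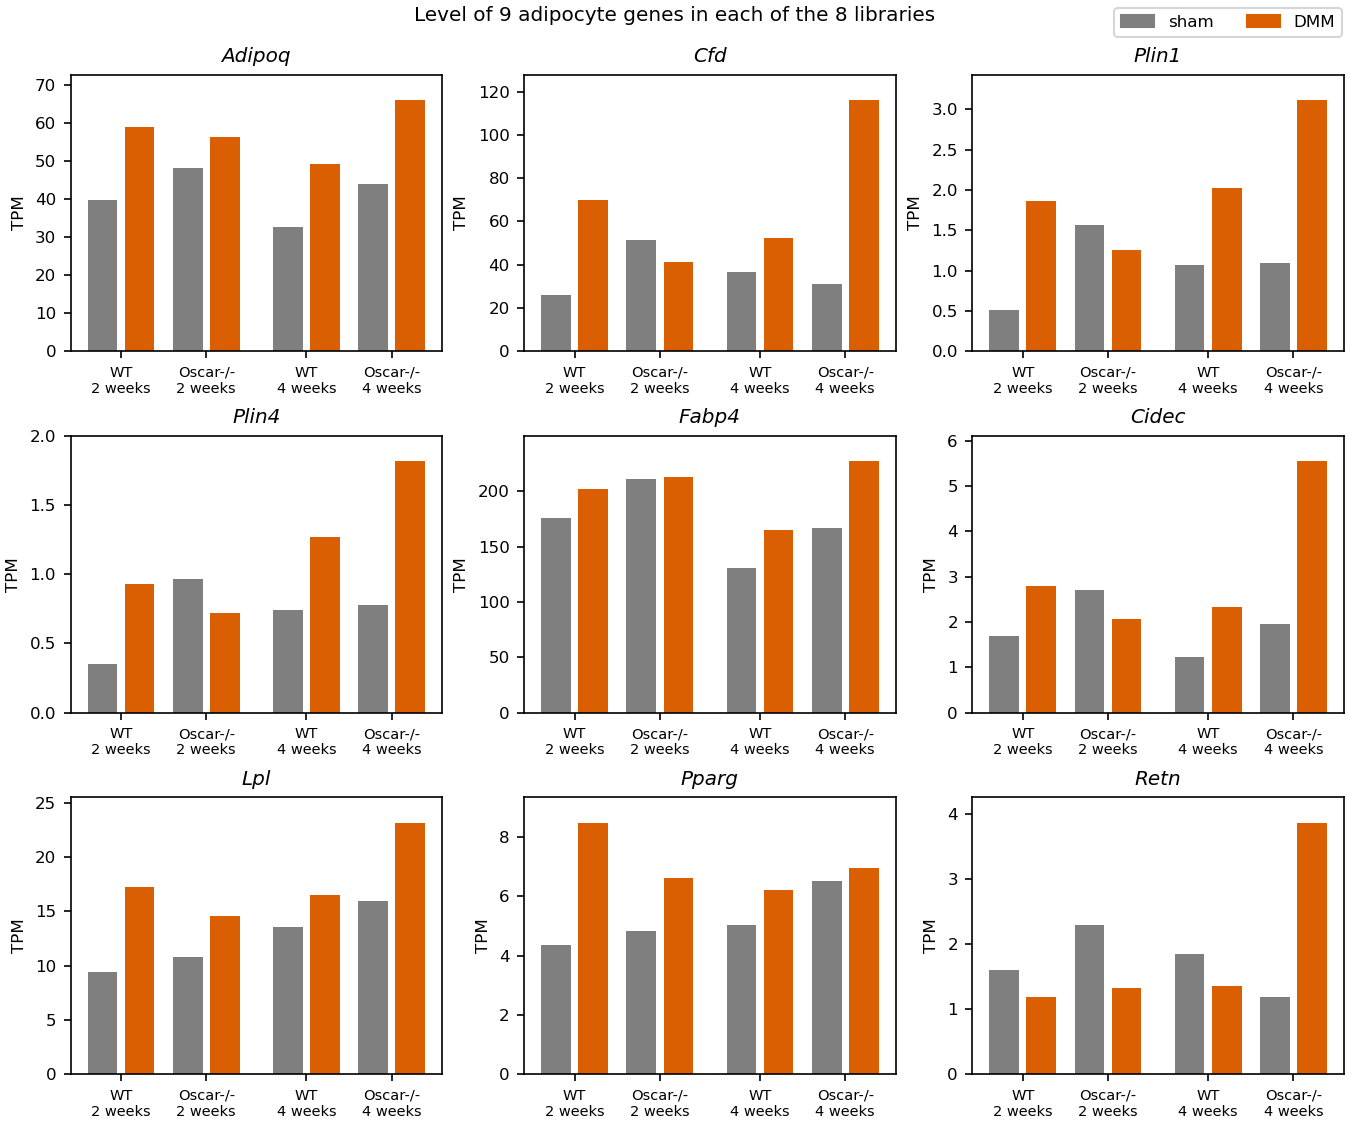
Level in TPM of the 9 tested adipocyte genes in each library, with bars in grey for sham and orange for DMM and 1 bar per library of 10 combined cartilages. The Oscar-/- DMM library at 4 weeks is the highest for 8 of the 9 genes, and the WT sham library at 2 weeks is the lowest for 5.

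The Oscar-/- DMM library at 4 weeks was the highest of the 8 for 8 of the 9 tested members, on TPM as on TMM CPM, with Pparg the exception on both scales. The WT sham library at 2 weeks was the lowest on TPM for 5 members and the WT sham library at 4 weeks for 3. The sum of the 10 genes was 260 (sham) and 364 (DMM) TPM for WT and 334 (sham) and 338 (DMM) for Oscar-/- at 2 weeks, and 223, 297, 269 and 454 TPM in the same order at 4 weeks. Without Fabp4, the sum was 83.8 TPM in the lowest library, WT sham at 2 weeks, and 227 TPM in the highest, Oscar-/- DMM at 4 weeks. In such bulk libraries a difference in the number of fat cells and a difference in the RNA each of them holds cannot be told apart.

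DMM was first compared with sham within each genotype and week, as a log2 ratio of 2 libraries with a 95% interval that covers counting error only and not the spread between mice. In WT at 2 weeks 8 of the 9 members were higher in DMM, all 8 with an interval above 0, and the median log2 ratio was 0.88, against 0.35 over 12513 genes with a ratio, of which 85.7% were higher. On TMM CPM the members' median was 0.52 against 0.00, with 7 of 9 higher against 49.5% of all genes. The intervals are on TPM and were not computed on TMM CPM, and the share of all genes with an interval above 0 was not computed for any pair. Plin4 is counted among the members with an interval above 0 in every pair except Oscar-/- at 2 weeks. Plin1 had the largest log2 ratio in TPM, at 1.87 (95% interval 1.28 to 2.45), followed by Cfd at 1.44 (1.28 to 1.60) and Plin4 at 1.41 (0.91 to 1.91). The sign of Fabp4 depended on the scale, at 0.20 on TPM and -0.15 on TMM CPM.

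In WT at 4 weeks 8 of the 9 members were again higher in DMM, 7 with an interval above 0, and the median log2 ratio in TPM was 0.52, against 0.05 over 12516 genes, of which 59.0% were higher. Cidec was at 0.93 (95% interval 0.25 to 1.60), Plin1 at 0.92 (0.34 to 1.49) and Plin4 at 0.78 (0.32 to 1.24). Retn was the member below 0 at both weeks in WT, at -0.44 and -0.45, with intervals that included 0.

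In Oscar-/- mice at 2 weeks 4 of the 9 members were higher in DMM, on TPM as on TMM CPM, and the median log2 ratio in TPM was -0.32, against -0.03 over 12508 genes, of which 43.7% were higher. On TMM CPM the median was -0.26 against 0.02, with 54.6% of all genes higher. Cfd was at -0.32 (95% interval -0.49 to -0.15), the only member with an interval below 0, while Adipoq at 0.23 (0.09 to 0.36), Lpl at 0.44 (0.30 to 0.58) and Pparg at 0.46 (0.13 to 0.78) had intervals above 0. At 4 weeks all 9 were higher in DMM on both scales, 8 with an interval above 0. The median in TPM was 1.22, against -0.15 over 12519 genes, of which 24.2% were higher. On TMM CPM the median was 1.36 against -0.01, with 48.05% of all genes higher. Both of these members' medians are the values of Plin4 itself. In TPM Cfd was at 1.89 (1.73 to 2.06), a 3.72-fold ratio, Retn at 1.71 (0.84 to 2.58), and Plin1 and Cidec both at 1.5. Cfd, Retn, Plin1, Plin4 and Cidec thus had a wide gap between weeks in Oscar-/- mice, and Lpl, at 0.44 and 0.54, a small one. With 1 library for each point, the difference between weeks was not tested.

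**Figure D2:**
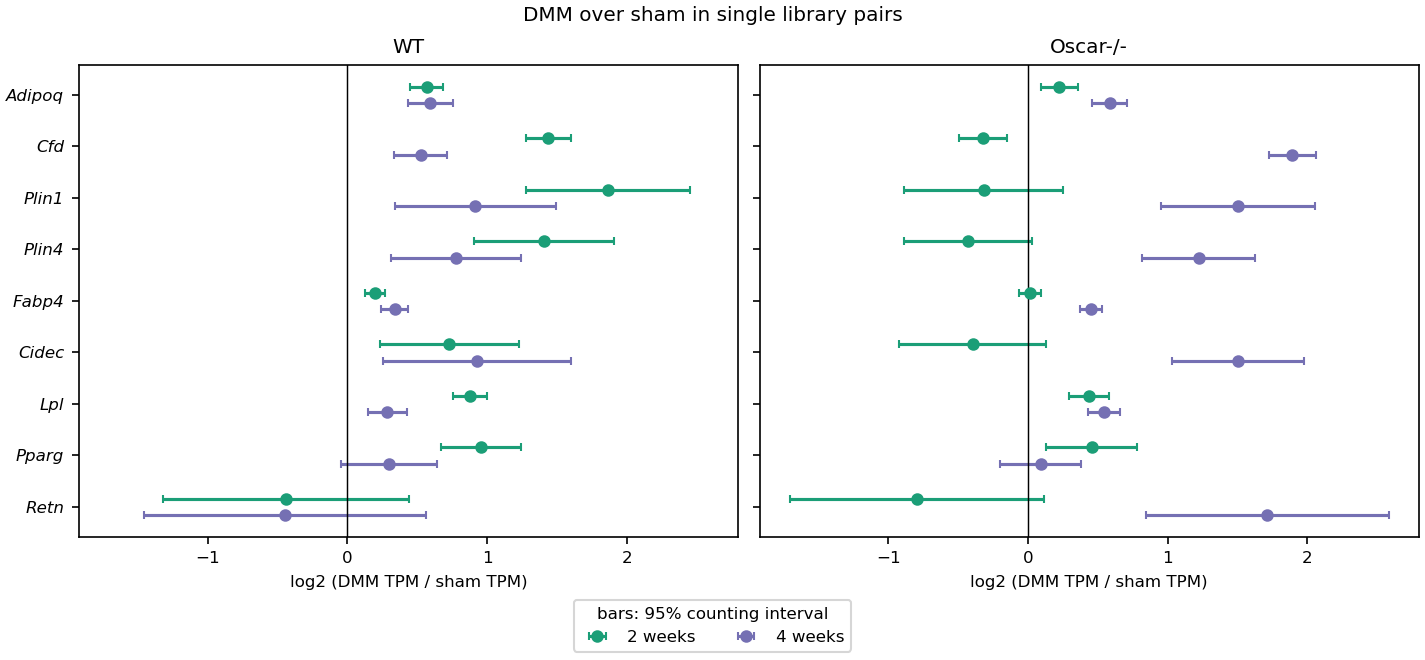
Log2 ratio of DMM to sham TPM for each member (rows) in WT on the left and Oscar-/- on the right, with green points for 2 weeks, purple points for 4 weeks and bars for 95% counting intervals. In Oscar-/- the points of Cfd, Plin1, Plin4, Cidec and Retn lie below 0 at 2 weeks and above 1 at 4 weeks.

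The study's measure of how the knockout altered the response, named DIF, subtracts the WT log2 ratio of DMM to sham from the Oscar-/- one. At 2 weeks DIF was below 0 for all 9 members, with a median of -0.50, but 82.6% of 12500 genes were also below 0, with a median of -0.41, and on TMM CPM 5 of the 9 were below 0 with a median of -0.03, against 50.8% of all genes and a median of -0.01. The droplet genes and Cfd stayed below 0 on both scales, with Plin1 at -2.18 (counting SE 0.42), Plin4 at -1.84 (0.35), Cfd at -1.76 (0.12) and Cidec at -1.13 (0.37) in TPM. With a pseudocount of 1 Plin1 was at -1.11 and Plin4 at -0.71. A further alternative set each DMM library against the mean of both sham libraries of its genotype, at 2 and 4 weeks. There Plin1 was at -1.32, Cfd at -1.17, Plin4 at -1.05 and Retn, at -0.36 otherwise, at 0.15. At 4 weeks 2 of the 9 were below 0 in TPM, Adipoq at -0.01 and Pparg at -0.21, whereas 75.0% of 12509 genes were. On TMM CPM 0 of the 9 were, with a median of 0.63, against 52.3% of all genes and a median of -0.02. The members' median in TPM at 4 weeks was 0.44, against -0.22 over all genes. The members' medians at 4 weeks are on both scales the values of Plin4 itself. Without Plin4 the middle members at 4 weeks were Cidec and Lpl, at 0.57 and 0.26 in TPM and at 0.77 and 0.49 on TMM CPM. Without Plin4, DIF in TPM was below 0 for 8 of 8 members at 2 weeks and 2 of 8 at 4 weeks. On TMM CPM these numbers were 4 of 8 and 0 of 8. In TPM at 4 weeks Cfd, at 1.37 (counting SE 0.13), and Retn, at 2.16 (0.68), were the highest. Against the mean of both sham libraries of the genotype, Cfd at 4 weeks was at 0.74 and Retn at 1.51. Plin1 and Plin4, at 0.59 and 0.44 otherwise, were at -0.13 and -0.16.

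To use all 8 libraries, edgeR's quasi-likelihood test was fitted to the 12538 tested genes with terms for week, genotype and surgery. With no repeat library, these p-values measure the spread left after the additive terms. For surgery no member passed a Benjamini-Hochberg adjusted p of 0.05, with adjusted p-values of 0.308 to 0.9998, and none of the 12538 genes did (0% called). The alternative tools DESeq2 and limma called 73 and 21 genes for surgery, none of them a member. All 9 members had a log2 fold change above 0, with a median of 0.50, against 0.00 over all genes. At an unadjusted p below 0.05, 7 of the 9 were higher, against 3.87% of all tested genes. Without Plin4 these numbers were 6 of 8, with a median of 0.47.

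Plin1 had the largest edgeR log2 fold change for surgery, at 1.03 (SE 0.30, adjusted p = 0.418). It was followed by Cfd at 0.91 (SE 0.30, adjusted p = 0.497) and Cidec at 0.76 (SE 0.31, adjusted p = 0.701). Plin4 was at 0.71, Lpl at 0.50 and Adipoq at 0.44, and Pparg, at 0.31, was the smallest with an unadjusted p below 0.05. Fabp4 at 0.20 (SE 0.14) and Retn at 0.06 (SE 0.42) did not reach it, with unadjusted edgeR p-values of 0.167 and 0.892. Without the Oscar-/- DMM library at 4 weeks, 4 of 9 were higher at an unadjusted edgeR p below 0.05, against 5.61% of all genes. The median was then 0.31, with Cfd at 0.45, Cidec at 0.31 and Retn at -0.60. The number was 4 of 9 without the Oscar-/- sham library at 4 weeks, against 4.07% of all genes. Without the WT DMM library at 2 weeks it was 3 of 9, against 2.17%.

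Marker genes of other cells are given beside these values. The summed level of the 10 endothelial markers was 94.3 to 132 TPM in sham and 140 to 184 TPM in DMM, without overlap, and all 10 were read in every library. The 5 marrow stroma markers summed to 331 to 483 TPM in sham and 428 to 523 TPM in DMM, and the 8 macrophage markers to 180 to 308 TPM in sham and 241 to 376 TPM in DMM. The 8 chondrocyte markers summed to 743 to 2058 TPM in sham and 572 to 892 TPM in DMM, with the lowest value in the Oscar-/- DMM library at 4 weeks. The 10 skeletal muscle markers were at 66.1 to 145 TPM in DMM and 71.1 to 278 TPM in sham, and the 7 fibroblast and synovial lining markers at 840 to 1089 TPM in DMM and 782 to 1531 TPM in sham. The sums of these lists other than the endothelial one overlapped between sham and DMM. The part of these cells in the values of the adipocyte genes was not tested.

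**Figure D3:**
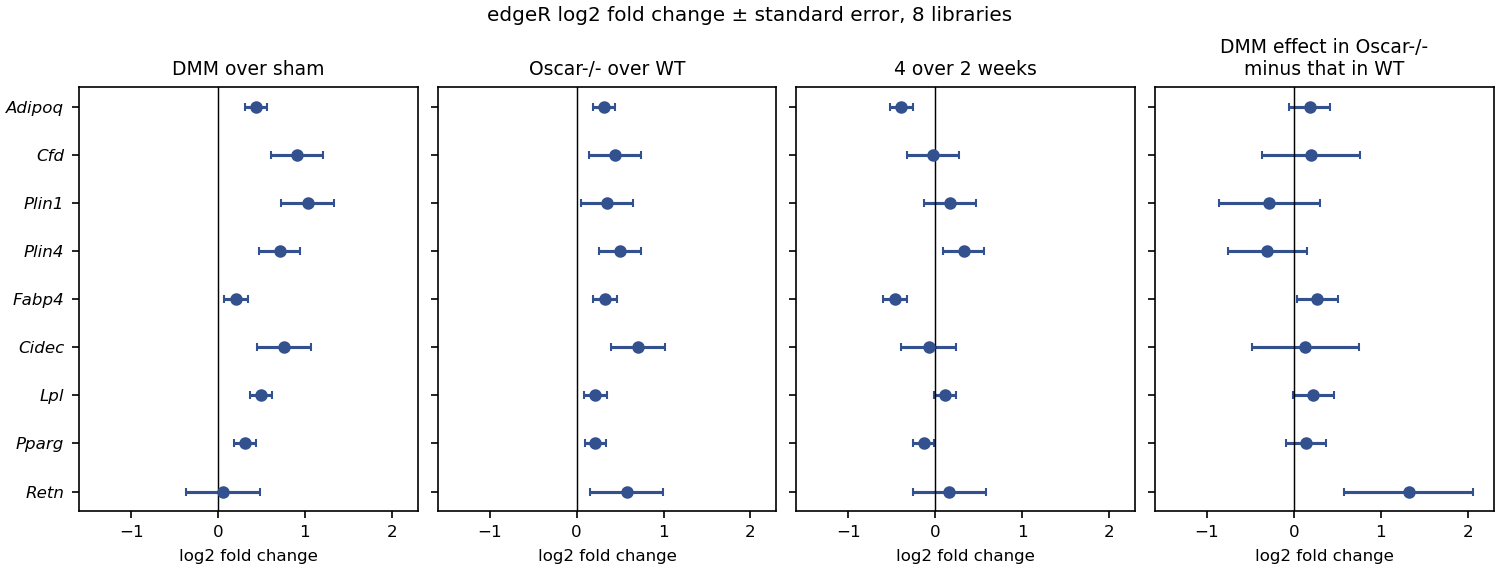
edgeR log2 fold change of the 9 tested members (rows) with standard error bars, from left to right for DMM over sham, Oscar-/- over WT, 4 over 2 weeks and the difference of the DMM effect between genotypes, over 8 libraries. All 9 points are above 0 in the first and second panels, and no member passed the adjusted threshold in any panel.

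Within genotypes, fitted with an interaction term, DMM over sham gave no member past the adjusted threshold in WT, where 610 genes, 4.87%, were called, or in Oscar-/-, where 14 genes, 0.112%, were called. In WT 3 members were higher at an unadjusted p below 0.05, or 2 of 8 without Plin4, against 12.6% of all genes. They were Plin1 at 1.19 (SE 0.42, edgeR adjusted p = 0.134), Plin4 at 0.88 (SE 0.33, adjusted p = 0.157) and Lpl at 0.38 (SE 0.17, adjusted p = 0.210). With a library left out, 1 group of this model is a single library, so only log2 fold changes of the members are given. The members' median in WT, 0.38 with all libraries, was 0.38 with either Oscar-/- DMM library left out. It was 0.27 without WT sham at 4 weeks and 0.22 without WT DMM at 2 weeks, where Lpl was at 0.03. The lowest member in WT was Retn, at -0.65.

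In Oscar-/- mice 5 members were higher at an unadjusted p below 0.05, against 5.2% of all genes, and all 9 were above 0. Plin4 was not among the 5. They were Lpl at 0.61 (SE 0.16, edgeR adjusted p = 0.176), Adipoq at 0.53 (SE 0.17, adjusted p = 0.256), Pparg at 0.38 (SE 0.16, adjusted p = 0.386), Cfd at 1.01 (SE 0.40, adjusted p = 0.351) and Plin1 at 0.90 (SE 0.40, adjusted p = 0.416). Without the Oscar-/- DMM library at 4 weeks 3 of the 9 were above 0 and the members' median was -0.03. Without that of 2 weeks all 9 were above 0 and the median was 1.06. In that case the Oscar-/- DMM arm was the 4-week library alone, which was the highest of all libraries for 8 of the 9 members and was assumed to vary like the other groups. The median, 0.61 with all libraries, was 0.415 without Oscar-/- sham at 4 weeks and 0.60 with either WT DMM library left out. The count at an unadjusted p below 0.05 was 1 with DESeq2, against 2.45% of all genes, and 3 with limma, against 0.941%. It was 8 with no filter on level, against 4.6%.

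The test of the difference itself, the interaction of genotype and surgery with the weeks standing in for replicates, called 657 genes, 5.24%, of which 177 were higher and 480 lower, and no member. The members' median was 0.18, against -0.01 over all genes, and 7 of the 9 were above 0. Without Plin4 7 of 8 were above 0, with a median of 0.19. The count and the median over the 9 moved with the setting, to 1 of 9 and -0.17 with limma. They were 2 of 9 and -0.19 without Oscar-/- DMM at 4 weeks and 9 of 9 and 0.49 without Oscar-/- DMM at 2 weeks. Retn was the highest, at 1.32 (SE 0.74, edgeR adjusted p = 0.305), and Plin4 the lowest, at -0.31 (SE 0.45, adjusted p = 0.721). Retn was at 0.17 without the Oscar-/- DMM library at 4 weeks and at 2.13 without that of 2 weeks. Since the Oscar-/- pairs of Cfd, Plin1, Plin4, Cidec and Retn lay on opposite sides of 0 at 2 and 4 weeks, that disagreement enters the spread of this test.

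Between genotypes, over both surgeries, 6 of 12538 genes were called, 0.0479%, and no member. All 9 members had a log2 fold change above 0 in Oscar-/- relative to WT, with a median of 0.35, against 0.01 over all genes. At an unadjusted p below 0.05 the number higher was 3, against 1.24% of all genes, namely Cidec at 0.71 (SE 0.32), Fabp4 at 0.33 (SE 0.14) and Adipoq at 0.32 (SE 0.13), each with an edgeR adjusted p of 0.9997. Plin4 was not among the 3. Without the Oscar-/- DMM library at 4 weeks the number was 0, against 1.72% of all genes. There 6 of 9 were above 0, with a median of 0.16, Cidec at 0.25 and Fabp4 and Adipoq both at 0.16. The number was also 0 without WT DMM at 2 weeks, WT DMM at 4 weeks or WT sham at 4 weeks. All genes then had shares of 1.58%, 1.57% and 0.686%. Without Oscar-/- DMM at 2 weeks the number was 6, or 5 of 8 without Plin4, against 2.2% of all genes. Within the lane tag of the 2-week libraries, the log2 ratio of Oscar-/- to WT in sham was 0.28 for Adipoq, 0.996 for Cfd and 1.62 for Plin1 in TPM. That in DMM was -0.07, -0.76 and -0.56. On TMM CPM both Adipoq ratios changed direction, to -0.0074 in sham and 0.0627 in DMM, while Cfd and Plin1 kept their directions. In sham Fabp4, Lpl and Pparg were also above 0 in TPM and below 0 on TMM CPM. The ratio over all genes is not given for this comparison.

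Between weeks, 995 genes were called, 7.94%, and no member passed, with the lowest edgeR adjusted p at 0.0656. Week and lane tag cannot be told apart in this comparison. Fabp4 at -0.47 (SE 0.14, edgeR adjusted p = 0.0656) and Adipoq at -0.39 (SE 0.13, adjusted p = 0.0958) were lower at 4 weeks at an unadjusted p below 0.05, against 13.1% of all genes. Plin4, at 0.33 (SE 0.24), was the highest member. Both Fabp4 and Adipoq passed without the Oscar-/- DMM library at 4 weeks, with Fabp4 at -0.63 (adjusted p = 0.0103) and Adipoq at -0.54 (adjusted p = 0.0186) in the same test.

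Relations among the members were described by the ratio of each to Adipoq within a library, which does not depend on the total. Fabp4 stayed closest to a fixed ratio, at 335 to 442% of Adipoq, with an SD of log2 ratios of 0.16 (n = 8). The SD was 0.24 for Pparg, 0.32 for Lpl and 0.38 for Cidec. Cfd went from 64.8% of Adipoq in WT sham at 2 weeks to 176% in Oscar-/- DMM at 4 weeks, with an SD of 0.48. Plin1, at 1.28 to 4.71%, and Plin4, at 0.878 to 2.75%, had their extremes in the same libraries as Cfd, and Retn, with 13 to 56 counts, had an SD of 0.60. The members therefore did not move in 1 proportion, and Cfd, Plin1, Plin4 and Cidec exceeded Adipoq's own change in the Oscar-/- DMM library at 4 weeks.

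**Figure D4:**
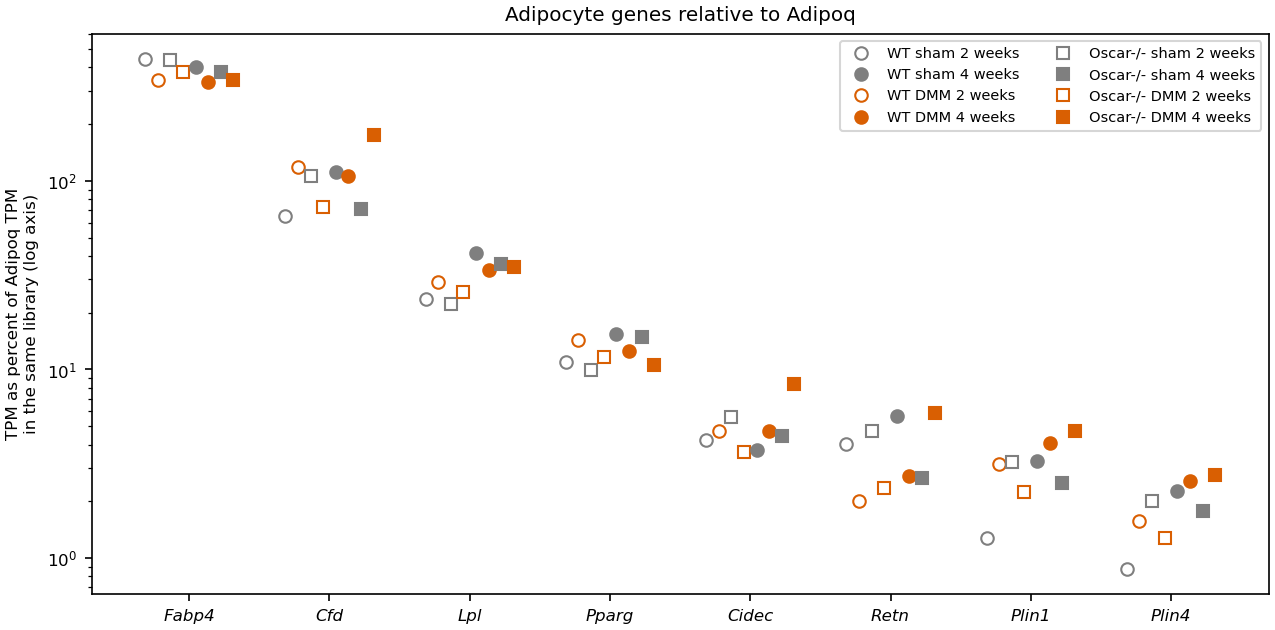
TPM of 8 members as a percentage of Adipoq TPM in the same library (log axis), with circles for WT, squares for Oscar-/-, grey for sham, orange for DMM, open symbols for 2 weeks and filled symbols for 4 weeks. Fabp4 stays between 335 and 442%, while Cfd goes from 64.8 to 176% and is highest in Oscar-/- DMM at 4 weeks.

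Likeness to Adipoq was measured as the root mean square difference of log2 TMM CPM, each gene centred on its mean of the 8 libraries, over 10831 other genes with at least 50 counts in every library. The median was 0.40, and Fabp4 was at 0.13, Pparg at 0.22, Lpl at 0.28, Cidec at 0.37, Cfd at 0.45, Plin4 at 0.50, and Plin1 and Retn at 0.54. The nearest genes outside the set were Ms4a1 at 0.13, which encodes CD20 of B cells, the dipeptidase gene Dpep1 at 0.16, the endothelial proteoglycan gene Esm1 at 0.17, the lymphocyte chemokine receptor genes Cxcr5 and Ccr7, both at 0.18, and the BMP antagonist gene Chrdl1 at 0.18. Ms4a1 was at 12.95 (sham) and 16.9 (DMM) TPM for WT and 14.2 (sham) and 18.0 (DMM) for Oscar-/- at 2 weeks, and at 11.4, 15.3, 14.6 and 17.2 TPM in the same order at 4 weeks. The 4 DMM libraries were above the 4 sham libraries for Ms4a1 as for Adipoq in TPM. Cfd, Plin4, Plin1 and Retn were less like Adipoq than the median gene was, and all but Cfd had fewer than 50 counts in some libraries, which adds counting error to the difference.

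Other genes of fat cell metabolism were taken from lists drawn up by pathway. For surgery no gene of any list passed the edgeR test. Of 65 companion genes 51 were tested. The median log2 fold change for surgery was 0.21 over the 4 tested of 8 other adipocyte-restricted genes, 0.20 over 7 genes of fatty acid synthesis, 0.17 over 6 genes of lipid, glycerol and glucose uptake, 0.05 over 5 genes of lipolysis, 0.02 over 9 adipogenic transcription factors and -0.06 over 6 genes of triglyceride synthesis, against 0.50 over the members. It was 0.07 over 4 adipokine receptor genes, 0.07 over 3 of 5 other fatty acid binding protein genes, -0.02 over 2 of 5 other droplet coat genes and -0.10 over 4 other secreted factors. Car3, a carbonic anhydrase abundant in fat cells and muscle, was at 0.40 (edgeR adjusted p = 0.564) and Scd1, which desaturates fatty acids, at 0.68 (adjusted p = 0.418). Ucp1, the uncoupling protein that defines brown fat, had at most 1 count in any library, and 1 of 5 thermogenic genes was tested. The widely expressed droplet coat gene Plin2 was at 0.01 for surgery and at 35.4 to 45.8 TPM.

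Among companion genes named for their p-values, log2 fold changes for surgery below 0 included those of Klf15, a transcription factor gene of the fat cell programme, at -0.96 (edgeR adjusted p = 0.286), Rbp4, which encodes the retinol carrier, at -0.70 (adjusted p = 0.737), Fabp3 and Sncg, both at -0.38, Cebpd, at -0.23, and Agpat2, an enzyme gene of triglyceride synthesis, at -0.22 (adjusted p = 0.509). Above 0 lay Gpd1, whose product makes the glycerol backbone of triglyceride, at 0.67 (adjusted p = 0.529). Of the other companion genes with the lowest p-values of their lists, Fabp7 was at 0.53, Zfp423 at 0.35, Acaca at 0.20, Lepr at 0.14 and Rxra at 0.09. Pnpla2, which encodes ATGL, was at 0.08, its activator gene Abhd5 at -0.06 and the monoglyceride lipase gene Mgll at 0.05. Cdo1 and Fabp5 were both at 0.07, Elovl6 at 0.05, Dio2 at 0.01, Adipor1, an adiponectin receptor gene, at -0.01, Plin3 at -0.05, the glucose transporter gene Slc2a4 at -0.10 and Nampt at -0.11. The differences of these genes between sham and DMM thus lay on both sides of 0, and none passed the test.

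In the interaction test 2 of the 51 companion genes were called, 3.92%, against 5.24% of all genes, and both were lower. Cdh13 encodes T-cadherin, which binds adiponectin on endothelium and muscle. Cdh13 was at 1.86 (sham) and 6.34 (DMM) TPM for WT and 5.95 (sham) and 4.54 (DMM) for Oscar-/- at 2 weeks, and at 2.42, 5.89, 4.63 and 4.15 TPM in the same order at 4 weeks. Its interaction log2 fold change was -1.42 (SE 0.17, edgeR adjusted p = 0.00438). In TPM, DMM exceeded sham in WT and lay below it in Oscar-/- at both weeks.

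Cav1 encodes caveolin 1, the coat protein of caveolae in endothelium and fat cells. In the same order its levels at 2 weeks were 11.1, 24.1, 22.1 and 18.1 TPM and those at 4 weeks 9.44, 22.3, 17.1 and 15.2 TPM, with the same pattern as Cdh13 in TPM. In Oscar-/- at 4 weeks the expected counts of Cav1, before scaling by library size, were 546 (sham) and 701 (DMM). Those of Cdh13 were 246 and 294. TMM CPM, the scale of the test, is not given for these genes, so their direction on it in this pair is not stated. The interaction log2 fold change of Cav1 was -1.07 (SE 0.16, edgeR adjusted p = 0.00992). The adjusted p of Cav1 was 0.0546 without WT DMM at 2 weeks, 0.0749 without Oscar-/- sham at 2 weeks and 0.0848 without WT DMM at 4 weeks. The endothelial markers, read beside these genes, summed at 2 weeks to 94.3 (sham) and 171 (DMM) TPM for WT. They summed to 129 (sham) and 140 (DMM) TPM for Oscar-/-. At 4 weeks the sums were 126, 184, 132 and 145 TPM in the same order. The osteoblast sums were 1659, 3093, 2808 and 2333 TPM at 2 weeks and 1514, 3210, 2291 and 1987 TPM at 4 weeks. The fibroblast and synovial lining sums were 983, 1089, 1531 and 920 TPM, then 782, 1069, 1364 and 840 TPM. The osteoblast and fibroblast lists, and no other, were higher in DMM in WT and lower in Oscar-/- at both weeks. The part of any of these cells in the 2 calls was not tested.

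Between weeks 9 of the 51 companion genes passed the edgeR test, 17.6%, against 7.94% of all genes, and here too week and lane tag cannot be told apart. Cebpb, which encodes C/EBPβ, an early factor of fat cell and of myeloid differentiation, rose by 1.17 on the log2 scale (SE 0.09, adjusted p = 0.000200), from 21.6 to 26.7 TPM at 2 weeks to 56.7 to 72.2 TPM at 4 weeks. Dgat1, the last enzyme of triglyceride synthesis, rose by 0.47 (adjusted p = 0.00346) and G0s2, an inhibitor of the lipase ATGL, by 0.44 (adjusted p = 0.0171). Cebpd at 0.28 and Dgat2 at 0.30 also rose. Gpihbp1, which anchors lipoprotein lipase to capillary endothelium, fell by 0.74 on the log2 scale (adjusted p = 0.0202), and Me1, Angptl4 and Ebf1 fell by 0.70, 0.48 and 0.39. Of the 9 genes, Cebpb and Dgat1 passed under all 13 alternatives run, while the other 7 lost the call without the WT sham library at 4 weeks, where their adjusted p-values in the same test were 0.0502 to 0.149, and in up to 9 of the 13 alternatives. All of these genes are also expressed outside fat cells, Cebpb and G0s2 in neutrophils among others. The 6 neutrophil markers summed to 65190 to 91780 TPM at 2 weeks and 84130 to 105300 TPM at 4 weeks, with overlap. The part of other cells in the 9 calls was not tested.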

How the data were processed

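RNA-seq of articular cartilage covered 8 libraries, each of 10 combined cartilages and each a different combination of week, genotype and surgery. After trimming, the authors used STAR for alignment and RSEM for quantification. Versions in the submitters' processing notes are RSEM 1.2.17, STAR 2.6.0a and FastQC 0.11.8. These notes give a human build, whereas the methods name GRCm38 and the files hold mouse identifiers. The expected counts that the authors deposited are estimates that divide shared reads between genes, and they were rounded for count tests. The deposited TPM values are corrected by the authors for effective length and have 1 fixed sum per library, so abundant genes shift all others. Whether reads were assigned by strand is not given in the sources used here.

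Identifiers were matched to GENCODE M21 on GRCm38 (52403 of 52636). Protein-coding genes above 1 TPM in at least 1 library (12538) were tested with edgeR 4.0.16 (quasi-likelihood, TMM scaling, Benjamini-Hochberg adjustment over all tested genes, R 4.3.3). Additive terms for week, genotype and surgery left 4 residual degrees of freedom, and the interaction model left 3. The SE was taken from the log2 fold change and the F statistic. Nothing repeats a condition, so p-values measure the spread left after the model terms. The script was tested on simulated data. Ratios of 2 libraries used no pseudocount, and their intervals cover counting error only. Alternatives were DESeq2 1.42.0, its size factors in edgeR, limma 3.58.1 on log2(TPM + 1), no filter on level, hemoglobin genes left out and each library left out. For DIF they were TMM CPM, a pseudocount of 1 and the mean of both sham libraries of a genotype. A fit with genotype and week pairs as a block was added after the data were seen. Values are named for all 10 members, the 6 genes most like Adipoq, and companion genes among the 2 lowest p-values of a list for surgery or interaction or past the test. The members and lists were chosen with earlier results of these data known. Tables and figures were made with Python 3.11.15, pandas 2.3.3, numpy 2.4.6 and matplotlib 3.10.9.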

Additional observations from a re-analysis of the deposited data

Results flagged for a closer look

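Cfd is listed because its DMM over sham log2 ratio in TPM in Oscar-/- mice was -0.32 at 2 weeks and 1.89 at 4 weeks, with counting intervals on opposite sides of 0. With 1 library per condition this difference between weeks was not tested.

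Cav1 and Cdh13 are listed because the effect of DMM differed between genotypes in the edgeR interaction test, with log2 fold changes of -1.07 for Cav1 and -1.42 for Cdh13. Over the 13 alternatives the adjusted p of Cav1 was 0.000274 to 0.0848 and that of Cdh13 was 0.000110 to 0.0462 in the respective tests.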

How the results depend on the processing

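Over the alternatives, the number of genes called for surgery, 0 with edgeR, was 73 with DESeq2, 21 with limma and 17 without a filter on level. It was 0 to 52 when each library was left out, the most without Oscar-/- DMM at 4 weeks. For genotype it was 6, 10 with DESeq2, and 2 to 8 with a library left out, the fewest without WT sham at 4 weeks. For week it was 995, 2699 with limma and 248 to 775 with a library left out, the fewest without WT sham at 4 weeks. For the interaction it was 657, 350 with limma and 15 to 1977 with a library left out, the fewest without WT DMM at 4 weeks and the most without WT sham at 4 weeks. For surgery in WT it was 610 and 132 to 1728, with the same libraries at both ends. For surgery in Oscar-/- it was 14, 73 with DESeq2, 94 with limma, 156 without a filter and 0 to 188 with a library left out, the fewest without Oscar-/- sham at 2 weeks and the most without WT sham at 2 weeks. The causes of these shifts were not tested.

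Members called, 0 in each comparison, were 2 of 1021 genes called for week with DESeq2 (Fabp4 and Adipoq). With limma they were 1 of 2699 for week (Lpl) and 1 of 479 for surgery in WT (Adipoq). With a library left out they were 0 to 2 for week, 0 to 1 for the interaction (Cfd, without Oscar-/- DMM at 2 weeks), 0 to 3 for surgery in WT (Cfd, Plin1 and Plin4, without either Oscar-/- DMM library) and 0 to 4 for surgery in Oscar-/- (without Oscar-/- DMM at 2 weeks). For surgery and genotype no alternative called a member.

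Of the members' edgeR log2 fold changes named for surgery, 123 of 126 alternative values kept their direction. Retn for surgery was -0.01 with DESeq2 and -0.60 to 0.31 with a library left out. Plin4 for the interaction was -0.96 to 0.25. In Oscar-/- the surgery values were -0.09 to 1.84 for Cfd, -0.02 to 1.62 for Plin1 and -0.03 to 0.66 for Fabp4, each lowest and below 0 without Oscar-/- DMM at 4 weeks. On TMM CPM, DIF below 0 was found for 5 members at 2 weeks and 0 at 4 weeks, against 50.8% and 52.3% of all genes. DIF at 2 weeks turned to 0.07 for Adipoq, 0.19 for Fabp4, 0.29 for Pparg and 0.03 for Retn (-0.36 in TPM). The labels give no replicate numbers. In a fit chosen after seeing the data, each genotype and week was a pair of 1 sham and 1 DMM library entered as a block. It called 0 genes for surgery. Of the 9 members 7 were higher at an unadjusted edgeR p below 0.05, against 3.48% of all genes, with a median of 0.48. Without Plin4, which was tested only because of DMM libraries, these numbers were 6 of 8 and 0.46. Retn, Plin1, Plin4, Cidec and Lep are limited by counts, with 0 to 200 per library.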
